A study of Mus musculus with 4 samples.

Results

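The genes described here act in the manchette and in the shaping of the sperm head: Hook1, Rimbp3, Meig1, Spem1, Sun3, Spag4, Sun5 and Cep131. These 8 genes of the 25824 gene symbols in the count tables were taken from a list by name, and all 8 were listed in all 4 tables, there spelled HOOK1, RIMBP3, MEIG1, SPEM1, SUN3, SPAG4, SUN5 and CEP131.

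The manchette is a temporary skirt of microtubules and actin that surrounds the nucleus of the elongating spermatid. It narrows the nucleus and carries cargo towards the centrioles and the growing tail, and it is then dismantled. SUN domain proteins span the inner nuclear membrane and connect the nucleus to the manchette and to the tail base, and loss of several of these genes in mice gives misshapen or detached sperm heads.

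Droplet-based single cell RNA sequencing was performed on testis cell suspensions from 2 WT mice (Ctcf wt/wt, replicates 1 and 2) and 2 Ctcf-cKO mice (Stra8-iCre, Ctcf f/Δ, replicates 1 and 3). All 4 mice were labelled as 15 weeks old and of the C56BL/6J background, as the labels spell it. Stra8-iCre acts in premeiotic male germ cells and not in the somatic cells of the testis. Both the stage at which these genes were detected and the effect of the genotype on them were asked.

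The libraries held 6701235 and 4859455 counts in WT and 2652665 and 1593546 counts in Ctcf-cKO. Counts for Ctcf itself were 16.4 and 10.1 CPM in WT (counts scaled to the total of the library or class) and 1.51 and 4.39 CPM in Ctcf-cKO, and whether these 3′ counts fall in the deleted part is not given in the sources used here. Of 24403 barcodes, 811 passed as cells, 96 and 241 in WT and 228 and 246 in Ctcf-cKO, with a median of 15357, 8251, 4668 and 2338 counts per cell, and 1 barcode was a cell in 2 libraries. Cells were clustered without these genes and named from marker genes as spermatogonia/spermatocyte-like, early, mid and late spermatid-like or somatic-like cells. A cluster of 73 cells could not be named and was left out of these classes. It held 3 and 31 cells in WT and 19 and 20 in Ctcf-cKO. The late class was the elongating spermatid-like clusters. The early class held only 2 cells in Ctcf-cKO replicate 3, so early and mid cells were joined, after the data were seen, as round spermatid-like cells (15 and 143 cells in WT, 39 and 12 in Ctcf-cKO). The largest cluster in this joined class held 0 and 73 cells in WT and 25 and 8 in Ctcf-cKO. The make-up of the round class thus differed between mice, most of all for WT replicate 1. The late class held 62 and 26 cells in WT and 75 and 98 in Ctcf-cKO. The spermatogonia/spermatocyte-like class held 5 and 34 cells in WT and 15 and 10 in Ctcf-cKO. In Ctcf-cKO replicate 3 a single cell held between 48.9% and 100% of the round spermatid-like counts of each of the 7 members detected there.

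In GRCm38 (GENCODE vM21) Hook1 lies at chr4:95967240-96025413 on the plus strand, Rimbp3 at chr16:17208603-17213982 on the plus strand in 1 exon, Meig1 at chr2:3409043-3422648 on the minus strand and Spem1 at chr11:69820876-69822180 on the minus strand. Of the nuclear envelope genes, Sun3 lies at chr11:9016054-9048991 (minus), Spag4 at chr2:156065175-156070617 (plus) and Sun5 at chr2:153856188-153871084 (minus), and Cep131 lies at chr11:120064430-120086827 (minus).

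Promoter sequences from RefSeq (GRCm38.p6) covered 7 of the 8 genes in 10 windows, each with 250 bases before and 50 bases after a transcript start. The 250 upstream bases of 3 of them are shown, because Sun5 and Meig1 were lower in Ctcf-cKO libraries and Spag4 was not. They lie at chr2:153871085-153871334 (Sun5, minus strand), chr2:3422649-3422898 (Meig1, minus strand, 1 of its 3 windows) and chr2:156064963-156065212 (Spag4, plus strand). Capitals mark TGACGTCA, the cAMP response element that CREM binds in spermatids, and its shorter form TGACG.
Sun5: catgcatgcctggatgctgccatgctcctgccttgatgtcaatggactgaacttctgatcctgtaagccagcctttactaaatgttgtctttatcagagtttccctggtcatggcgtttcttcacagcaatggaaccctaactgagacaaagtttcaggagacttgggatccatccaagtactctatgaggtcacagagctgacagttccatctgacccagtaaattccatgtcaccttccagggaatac
Meig1: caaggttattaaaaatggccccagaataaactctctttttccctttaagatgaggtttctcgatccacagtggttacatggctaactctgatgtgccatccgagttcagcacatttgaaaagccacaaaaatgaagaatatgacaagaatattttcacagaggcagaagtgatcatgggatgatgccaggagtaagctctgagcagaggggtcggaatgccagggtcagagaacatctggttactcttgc
Spag4: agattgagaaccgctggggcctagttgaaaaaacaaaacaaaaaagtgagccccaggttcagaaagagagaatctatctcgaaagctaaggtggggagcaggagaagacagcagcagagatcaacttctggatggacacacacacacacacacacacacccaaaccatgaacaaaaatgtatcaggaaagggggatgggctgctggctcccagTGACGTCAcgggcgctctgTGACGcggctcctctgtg
Among the 10 windows TGACGTCA was found only in that of Spag4, at -37 to -30 from the start. Both strands were searched, and 1.79% of all 32851 promoter windows of the same length hold it. The shorter TGACG, which overlaps it, is held by 20.8% of windows and was also found in the other two windows of Meig1 and in that of Cep131. These matches are descriptions of sequence and not evidence of binding.

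In whole libraries, where every barcode of a mouse was summed, 3 of the 8 genes were lower in Ctcf-cKO: Sun5, Rimbp3 and Meig1. None was higher. Both Ctcf-cKO values lay below both WT values for 5 of the 8, as they did for 35.8% of all genes. Across all 14552 genes tested, 28.5% passed the same test (edgeR quasi-likelihood F test, adjusted p under 0.05), 18.4% as higher and 10.1% as lower in Ctcf-cKO. The median log2 fold change was -0.50 over the 8 genes and -0.04 over all genes. In such sums fewer cells of a type and less RNA per cell cannot be told apart.

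Among the manchette genes, Rimbp3, which encodes a manchette protein that binds HOOK1, was measured at 354 and 294 CPM in the WT libraries and at 159 and 184 CPM in the Ctcf-cKO libraries. Both Ctcf-cKO values lay below both WT values, with a log2 fold change of -0.85 (SE 0.19, edgeR adjusted p = 0.00725, n = 2 mice per genotype). Meig1, whose protein acts in manchette transport and is required for spermiogenesis, was measured at 3103 and 2805 CPM in WT and at 1943 and 1869 CPM in Ctcf-cKO. The groups did not overlap, and the log2 fold change was -0.57 (SE 0.15, edgeR adjusted p = 0.0164). Hook1, which links the manchette to other structures and is mutated in the azh mouse with its abnormal sperm heads, was at 414 and 461 CPM in WT and at 418 and 500 CPM in Ctcf-cKO. The Hook1 ranges overlapped (log2 fold change 0.13, SE 0.18, edgeR adjusted p = 0.628). The call of Rimbp3 was lost without either Ctcf-cKO mouse (edgeR adjusted p = 0.143 without replicate 1 and 0.0725 without replicate 3), and so was that of Meig1 (0.207 and 0.261). Counts of a gene in a barcode piled up at values from 1 to 4, which made up 84.4% to 90.3% of all values above 0. With each count divided by 4 and rounded up, the Meig1 change was -0.16 on the log2 scale (edgeR adjusted p = 0.508), while Rimbp3 kept a change of -0.75 (edgeR adjusted p = 0.0128).

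Among the nuclear envelope genes, Sun5 showed the largest fold change of the 8. SUN5 anchors the tail base to the sperm head. Its transcripts were at 114 and 69.1 CPM in WT and at 29.8 and 27.6 CPM in Ctcf-cKO, from 764, 336, 79 and 44 counts. The 2 Ctcf-cKO libraries were close to each other and far below both WT libraries, with a log2 fold change of -1.60 (SE 0.30, edgeR adjusted p = 0.00252). This call was kept under all 11 other settings tried on whole libraries, with log2 fold changes from -2.03 to -1.26. Sun3, which encodes a SUN protein at the manchette side of the nucleus, was at 150 and 163 CPM in WT and at 106 and 116 CPM in Ctcf-cKO. The groups did not overlap but the test was not passed (log2 fold change -0.44, SE 0.21, edgeR adjusted p = 0.142). Spag4, which encodes the SUN4 protein of the spermatid nuclear envelope, was at 379 and 450 CPM in WT and at 438 and 439 CPM in Ctcf-cKO, with overlapping ranges (log2 fold change 0.14, SE 0.18, edgeR adjusted p = 0.603). Sun3 overlaps Gm11992 on the opposite strand, and Hook1 overlaps 9530080O11Rik. The strand used in counting is not given in the sources used here, so reads of such pairs cannot be told apart.

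Spem1, needed to shed the cytoplasm from the head and neck, was at 1089 and 1459 CPM in WT and at 1311 and 1289 CPM in Ctcf-cKO. The Ctcf-cKO values lay between the WT values (log2 fold change 0.09, SE 0.19, edgeR adjusted p = 0.759). Without WT replicate 2 the test called Spem1 higher (log2 fold change 0.32, edgeR adjusted p = 0.0151). Cep131, a centrosomal protein that reaches the tail base by way of the manchette, had the fewest counts, with 131, 95, 31 and 16 in the 4 libraries. Its levels were 19.5 and 19.5 CPM in WT and 11.7 and 10.04 CPM in Ctcf-cKO. Both Ctcf-cKO values were lower, but the test was not passed (log2 fold change -0.77, SE 0.42, edgeR adjusted p = 0.194).

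**Figure D1:**
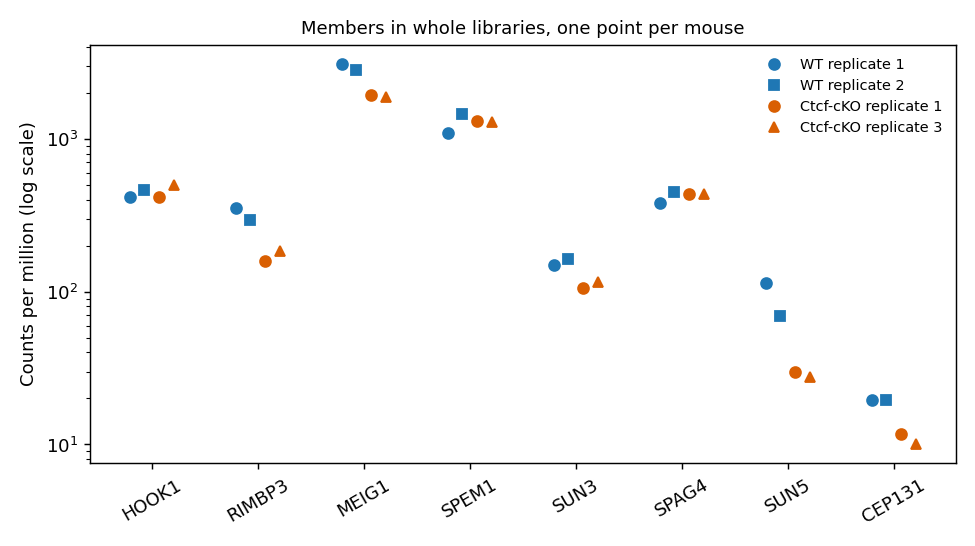
CPM of each gene in whole libraries, on a log axis, with 1 point per mouse (2 WT in blue, 2 Ctcf-cKO in orange). Both Ctcf-cKO points lie below both WT points for Rimbp3, Meig1, Sun3, Sun5 and Cep131, of which Rimbp3, Meig1 and Sun5 passed the test. Levels are compared between mice, not between genes.

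The 8 genes did not peak in the same class of cells. Hook1 and Spem1 had their highest germ cell level in late spermatid-like cells, and Rimbp3, Meig1, Sun3 and Sun5 were lower there than in round spermatid-like cells. This is a description with no test, because the classes were made from the same cells. WT replicate 1 had 0 cells in the largest round cluster, so its round values are not like for like with those of the other mice. Of 5163 genes with at least 100 counts in the 2 classes, 13.4% were higher in the late class in all 4 mice and 47.9% were lower in all 4. Of the 7 members among them 2 were higher and 4 lower.

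Spem1 was at 453, 1511, 830 and 395 CPM in round spermatid-like cells and at 3755, 3118, 2883 and 2357 CPM in late cells (in the order WT replicates 1 and 2, Ctcf-cKO replicates 1 and 3, also below). All 4 late values exceeded all 4 round values. The late to round ratio was 8.30, 2.06, 3.47 and 5.96. Hook1 was at 225, 344, 150 and 201 CPM in spermatogonia/spermatocyte-like cells, at 356, 488, 342 and 345 CPM in round cells and at 615, 599, 594 and 654 CPM in late cells. Each mouse was higher in each later of these 3 classes. In the early cells taken alone (8, 31, 5 and 2 cells) Hook1 was at 195.9, 545, 59.9 and 45.2 CPM, below the spermatogonia/spermatocyte-like level in all mice but WT replicate 2. Somatic-like cells held it at 336, 164, 318 and 409 CPM, so that round cells were at 1.06, 2.98, 1.08 and 0.843 times and late cells at 1.83, 3.66, 1.87 and 1.60 times the somatic-like level. WT and Ctcf-cKO overlapped in late cells, and in the spermatogonia/spermatocyte-like and round classes both Ctcf-cKO mice lay below both WT mice without passing the test.

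Sun5 was at 150, 78.7, 43.3 and 42.1 CPM in round spermatid-like cells and at 5.45, 15.3, 10.9 and 21.5 CPM in late cells. Each mouse was lower in the late class, although the late counts were 6, 4, 4 and 6 and the round counts in Ctcf-cKO 20 and 5. In spermatogonia/spermatocyte-like cells Sun5 had 0, 6, 0 and 0 counts, and a count of 0 allows up to 23.3, 19.6 and 75.5 CPM in the 3 mice concerned. Sun3 was at 164, 189, 215 and 353 CPM in round cells and at 81.8, 61.1, 98.02 and 78.7 CPM in late cells, without overlap between the classes. It was also higher in round than in spermatogonia/spermatocyte-like cells in all 4 mice, by 3.52, 1.86, 2.35 and 2.01 times. Its counts in spermatogonia/spermatocyte-like cells were 6, 54, 14 and 7, from only 2, 16, 3 and 2 cells. Spag4 was near level across spermatids, at 566, 546, 587 and 572 CPM in round cells and 448, 565, 542 and 522 CPM in late cells. Its late to round ratio lay on both sides of 1, from 0.792 to 1.03.

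Rimbp3 was at 392, 253, 256 and 362 CPM in round spermatid-like cells and at 63.6, 153, 142 and 125 CPM in late cells. All late values were below all round values, with ratios of 0.162, 0.603, 0.554 and 0.346. Meig1 was at 3015, 2795, 2488 and 2759 CPM in round cells and at 2479, 2473, 1604 and 1652 CPM in late cells. Its late to round ratio was 0.822 and 0.885 in WT and 0.645 and 0.599 in Ctcf-cKO. Cep131 had 9, 17, 10 and 0 counts in round cells and 10, 6, 0 and 0 in late cells, too few to order. Spem1 and Hook1 were higher and Sun5 and Rimbp3 lower in the late class in all 4 mice in the reported setting and in 12 alternatives of cell choice, clustering or counting. Of these 13 settings, which include 1 without the mitochondrial filter that left the sums as they were, Sun3 was lower in 12 and Meig1 in 8.

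**Figure D2:**
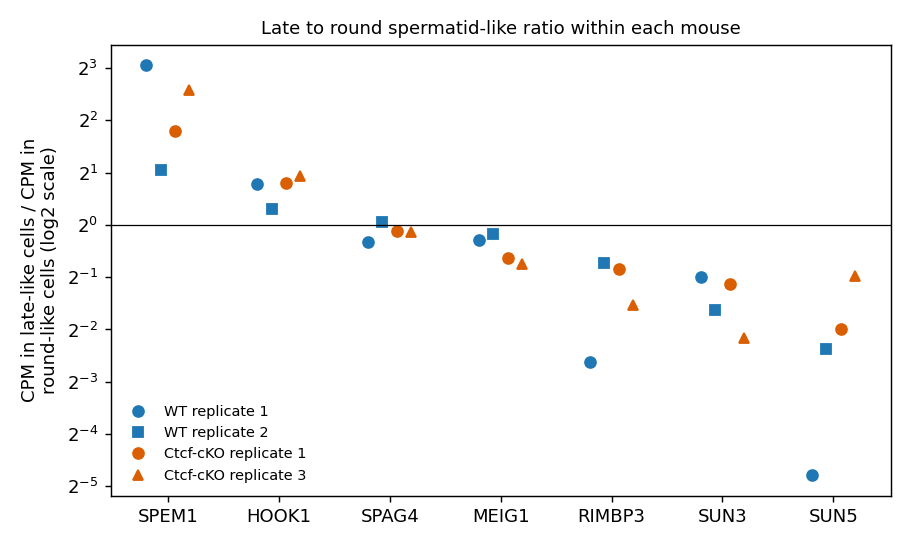
Ratio of the CPM in late to that in round spermatid-like cells within each mouse, on a log2 axis, for the 7 genes with enough counts. Points above the line at 1 were higher in late cells. Spem1 and Hook1 lie above the line in all 4 mice, Meig1, Rimbp3, Sun3 and Sun5 below it in all 4, and Spag4 on both sides.

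Thinned to 900 counts per cell, Spem1 was detected in 87.1%, 92.3%, 72.0% and 60.2% of late cells. In somatic-like cells, which should lack it, the shares were 27.3%, 28.6%, 42.5% and 45.3%, so the late cells stood above that background in each mouse. In round spermatid-like cells the shares were 13.3%, 71.3%, 41.0% and 33.3%, below the somatic-like share in all mice but WT replicate 2, and are read as background there. Before thinning the late shares were 100%, 100%, 84% and 69.4% at median depths of 15720.5, 8994, 2871 and 1630 counts per cell. The somatic-like shares were then 45.5%, 71.4%, 68.8% and 61.3% at median depths of 6463, 3656, 4541.5 and 2777.5 counts. After thinning, Sun5 was detected in 20% and 9.79% of round cells in WT and in 0% of the 39 and 12 round cells in Ctcf-cKO. At this thinned depth a count of 0 allows a detected share of up to 7.69% and 25% (3 cells, counting error only), which is no limit on the share of cells that carry the transcript. The somatic-like share of Sun5 was 9.09% of 11 cells in WT replicate 1 and 0% of 7 cells in WT replicate 2, which allows up to 42.9%, so a Sun5 share above background was not detectable with these few somatic-like cells. Before thinning, Sun5 was found in 86.7%, 28.0%, 17.9% and 8.33% of round cells, at median depths of 38472, 8783, 9339 and 2955 counts per cell, and in 27.3%, 0%, 2.5% and 0.943% of somatic-like cells.

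Free RNA carried all 8 genes. In barcodes with fewer than 200 genes Sun5 was at 191, 89.8, 36.1 and 38.8 CPM, Meig1 at 3572, 2854, 2283 and 2149 CPM, and Rimbp3 at 257, 320, 167 and 205 CPM. In these barcodes, too, the 3 genes were lower in both Ctcf-cKO mice than in both WT mice. The cut at 200 genes took very unequal parts of the libraries, at 1.57%, 12.1%, 40.8% and 46.9% of their totals. Cells made up 29% of the total of WT replicate 1, so most of that library lay in neither set. Its free RNA values for Sun5 and Rimbp3 rest on only 20 and 27 counts. Free RNA levels, and ratios to them here and below, are therefore not like for like between mice. Round spermatid-like cells held Sun5 at 0.789, 0.876, 1.20 and 1.09 times its free RNA level. For Meig1 these ratios were 0.844, 0.979, 1.09 and 1.28, and for Rimbp3 1.52, 0.791, 1.53 and 1.77. Round levels of Sun5 and Meig1 thus did not exceed free RNA in either WT mouse. Somatic-like cells held Meig1 at 1807, 1191, 1001 and 1049 CPM. The setting called free RNA subtracted, here and below, did not use these barcodes. It took from each cell the profile of the barcode ranks whose median count set the limit for cells. Late totals fell from 1100342 to 1018240 in WT replicate 1 and from 279641 to 251665 in Ctcf-cKO replicate 3. The late to round order was then kept in all 4 mice for Spem1, Hook1, Sun3, Sun5, Rimbp3 and Meig1. So small a removal could change the order little, so the kept order is no check on free RNA. The part of free RNA in the levels was not tested.

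**Figure D3:**
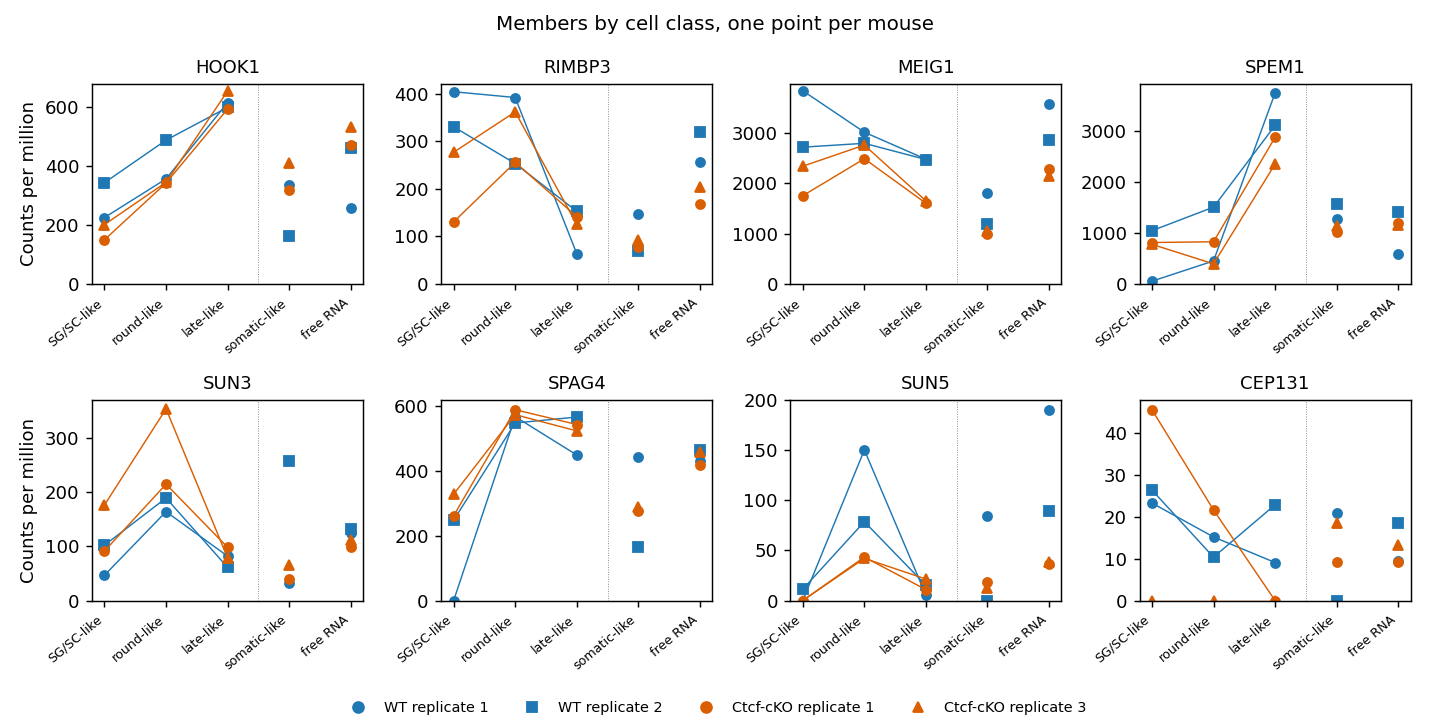
CPM of each gene by class, with 1 point per mouse (2 WT in blue, 2 Ctcf-cKO in orange) and lines joining the germ cell classes of a mouse, where SG/SC stands for spermatogonia/spermatocyte. Somatic-like cells and free RNA (barcodes with fewer than 200 genes) stand to the right of the dotted line. Spem1 climbs to between 2357 and 3755 CPM in late cells, Sun3 and Sun5 are higher in round than in late cells within each mouse, and all 8 genes are present in free RNA.

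Within late spermatid-like cells 1 of the 6 genes tested passed, which was Meig1, lower in Ctcf-cKO. Of all 3432 genes tested there 17.4% passed, 14.4% as higher and 3.06% as lower (493 and 105 genes, or 485 and 28 when scaled to library totals). Meig1 was at 2479 and 2473 CPM in WT and at 1604 and 1652 CPM in Ctcf-cKO, with both genotypes tight and apart (log2 fold change -0.72, SE 0.25, edgeR adjusted p = 0.0327, n = 2). The call was lost without WT replicate 1 (log2 fold change -0.73, edgeR adjusted p = 0.195) and without either Ctcf-cKO mouse (-0.73 and -0.78, edgeR adjusted p = 0.204 and 0.218), and with each count divided by 4 (log2 fold change -0.46, edgeR adjusted p = 0.193). Meig1 in late cells was at 0.694, 0.866, 0.702 and 0.769 times its free RNA level, below it in each mouse. Its Ctcf-cKO mean was 0.66 times the WT mean in late cells. The same ratio was 0.69 in free RNA, 0.68 in somatic-like, 0.62 in spermatogonia/spermatocyte-like and 0.90 in round cells. Spem1 was at 3755 and 3118 CPM in WT and at 2883 and 2357 CPM in Ctcf-cKO late cells. The groups did not overlap, but the test was not passed after adjustment (log2 fold change -0.51, SE 0.25, edgeR adjusted p = 0.168). Hook1, Spag4, Sun3 and Rimbp3 had overlapping ranges in the late class, and Sun5 and Cep131 had too few counts to be tested. Cep131 had 10 and 6 counts in WT late cells and 0 in both Ctcf-cKO mice, which allows up to 8.17 and 10.7 CPM against 9.09 and 22.9 CPM.

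Somatic genes differed between the genotypes in the same late spermatid-like cells. The summed CPM of the 18 Leydig cell markers was 52.7 and 210 in WT and 3428 and 4295 in Ctcf-cKO late cells, and 12 of the 13 tested were higher. The 21 Sertoli cell markers summed to 75.4 and 248 CPM in WT and to 4095 and 4795 CPM in Ctcf-cKO, with 14 of 15 higher. Free RNA differed in the same direction. It held the Leydig list at 791 and 627 CPM in WT and at 5983 and 6086 CPM in Ctcf-cKO. The Sertoli list was there at 295 and 639 CPM in WT and at 5397 and 5438 CPM in Ctcf-cKO. For both lists late cells lay below free RNA in each mouse. In Ctcf-cKO replicate 1, red blood cell markers were at 7471 CPM in late cells and 1490 CPM in free RNA. They lay below free RNA in the other mice. Macrophage markers lay above free RNA in WT replicate 1 (214 against 114 CPM) and Ctcf-cKO replicate 3 (2482 against 2203 CPM). In the other mice they lay below it. The source of these counts was not tested. Of the Leydig list 9 markers, among them Cyp17a1, Cyp11a1 and Star, were at 0 in both WT mice, and only Lhcgr was at 0 in both Ctcf-cKO mice. The 21 elongating spermatid markers had a median log2 fold change of -0.39 there, and 3 were lower. The part of these genes in the Meig1 result was not tested.

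No member passed in the other classes. The early class could be fitted without Ctcf-cKO replicate 3, where 0 of 5649 genes and none of 7 members passed. Sun5 was there at 166.9 and 25.1 CPM in the WT mice and had 0 counts in Ctcf-cKO replicate 1, which allows up to 30 CPM, and Hook1 had a log2 fold change of -3.04 (SE 1.09, edgeR adjusted p = 0.592) with its 6 Ctcf-cKO counts in 1 cell. In round spermatid-like cells none of 7 genes passed, and 0% of the 6378 genes tested did by edgeR (219 at an unadjusted p under 0.05, 5 passing by DESeq2). Sun5, at 150 and 78.7 CPM in WT and 43.3 and 42.1 CPM in Ctcf-cKO, had a log2 fold change of -1.44 (SE 0.56, edgeR adjusted p = 0.999). The point estimate was close to that of the whole libraries, but 5 counts from 1 cell made up the value of Ctcf-cKO replicate 3. Sun3 pointed the other way from its whole-library value, at 164 and 189 CPM in WT and 215 and 353 CPM in Ctcf-cKO round cells (log2 fold change 0.53, SE 0.41, edgeR adjusted p = 0.999). In mid spermatid-like cells alone 0 of 7 genes passed, and 0% of 5057 genes did (186 at an unadjusted p under 0.05, 9 by DESeq2). In spermatogonia/spermatocyte-like cells 0 of 6 passed, and 0% of 3582 genes did (261 at an unadjusted p under 0.05, 84 by DESeq2). Whether the genotype effect differed between late and round cells was tested with the mouse as a block, and 0% of 6793 genes and none of 7 members passed (231 genes at an unadjusted p under 0.05). Without Ctcf-cKO replicate 1 the number was 22 genes, again with no member. For Meig1 the difference was -0.83 (SE 0.97), so a change particular to late cells was not detectable.

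**Figure D4:**
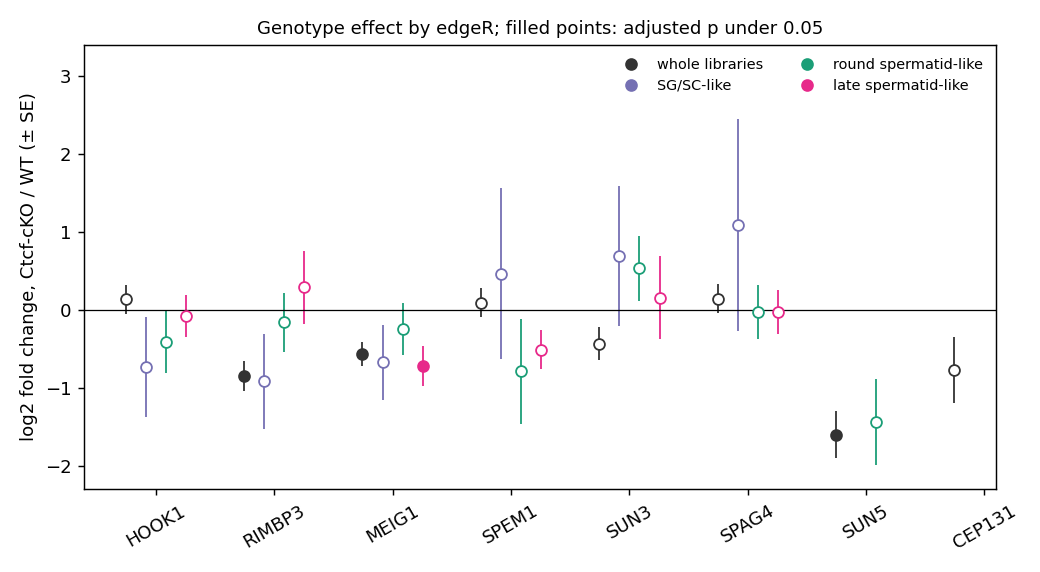
Log2 fold change of each gene, Ctcf-cKO against WT, with its standard error, in whole libraries and in the 3 germ cell classes, from 2 mice per genotype. Filled points passed the edgeR test at an adjusted p under 0.05. Sun5, Rimbp3 and Meig1 are filled in whole libraries and Meig1 in late spermatid-like cells; missing points had too few counts to be tested.

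The genes called lower in whole libraries were among those that were lower in late than in round spermatid-like cells. Of the 4 members lower in the late class in all 4 mice, 3 were called lower in Ctcf-cKO libraries, and of the 2 members higher in the late class neither was. The same held for all genes: 37.7% of 2475 genes on the round side were called lower in Ctcf-cKO libraries (median log2 fold change -0.61), against 0.434% of 691 genes on the late side (median 0.19). The classes and the whole libraries share their cells, so this is a description. The 25 round spermatid markers, which include none of the 8 genes, summed to 7128 and 6628 CPM in WT libraries and to 4448 and 4515 CPM in Ctcf-cKO libraries. Of them 19 were lower, with a median log2 fold change of -1.07. The 21 elongating spermatid markers had a median of 0.10, with 1 higher and none lower. Spermatocyte markers were lower for 10 of 25, and Leydig and Sertoli cell markers were higher for 16 of 18 and 20 of 20. Their part in the fall of Sun5, Rimbp3 and Meig1 was not tested.

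A wider list of 134 genes of the manchette, nuclear envelope, head-neck junction and perinuclear theca was set beside the 8, with 128 of its symbols listed in the tables. It was chosen with earlier results of these data known, so its counts are a description. In whole libraries 124 were tested, 33 were lower in Ctcf-cKO and 5 higher, with a median log2 fold change of -0.43. Over all 14552 genes 10.1% were lower and 18.4% higher, with a median of -0.04. The list followed the same division by stage. Of its 53 genes on the round side 29 were called lower (54.7%) and 1 higher, and of its 16 genes on the late side none was called. Over all genes 37.7% on the round side and 0.434% on the late side were called lower.

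Of the 53 manchette microtubule and transport genes tested, 19 were lower and 3 higher, beside the same shares of 10.1% and 18.4% over all genes, which also stand beside the counts that follow. Spag16, an axonemal central pair protein, was at 106 and 95.9 CPM in WT and 35.1 and 43.3 CPM in Ctcf-cKO libraries (log2 fold change -1.31, SE 0.26, edgeR adjusted p = 0.00313). Lrguk, needed for manchette movement, was at 41.0 and 25.3 CPM in WT and 16.6 and 10.7 CPM in Ctcf-cKO (log2 fold change -1.19, SE 0.40, edgeR adjusted p = 0.0447). For both genes the groups did not overlap. The microtubule end-binding gene Mapre1 was at 28.9 and 31.9 CPM in WT and 66.3 and 75.3 CPM in Ctcf-cKO (log2 fold change 1.28, SE 0.28, edgeR adjusted p = 0.00549), and Hook3, a relative of Hook1, had 26, 14, 37 and 16 counts (log2 fold change 1.89, SE 0.60, edgeR adjusted p = 0.0344). Both are used in many cell types, somatic cells included. Of 16 nuclear envelope genes 5 were lower and 1 higher, and Dpy19l2, which holds the acrosome to the nucleus, was at 160 and 106 CPM in WT and 63.0 and 46.4 CPM in Ctcf-cKO (log2 fold change -1.20, SE 0.27, edgeR adjusted p = 0.00655). Of 32 genes listed under head-neck junction and centrioles 6 were lower and 1 higher. The latter was Brcc3, with 3, 2, 33 and 13 counts (log2 fold change 4.56, SE 0.87, edgeR adjusted p = 0.00257). Of 23 perinuclear theca genes 3 were lower.

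In late spermatid-like cells 68 genes of the wider list were tested, and 2 were lower and 1 higher, where 3.06% of all genes were lower and 14.4% higher. Cylc2, a cytoskeletal protein of the perinuclear theca, was at 681 and 450 CPM in WT and at 193 and 243 CPM in Ctcf-cKO late cells. Both Ctcf-cKO values were far below both WT values (log2 fold change -1.52, SE 0.31, edgeR adjusted p = 5.47e-05). Ift20, a transport protein of the Golgi and cilium, had 10, 0, 27 and 28 counts and was called higher (log2 fold change 3.54, SE 0.83, edgeR adjusted p = 0.000586). None of the wider list passed in round, mid or spermatogonia/spermatocyte-like cells.

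The genes most like each member were found by Pearson correlation of log2(CPM + 10) over 16 sums (4 mice by 4 germ cell classes) among 6054 genes, as a description, since sums of a mouse share a library and depth. Spem1 was closest to Fam71f2 (r = 0.986), Cabs1 (0.984) and 1700027A15Rik (0.980). Hook1 was closest to Vhl (0.957), Spag4 to Fam229a (0.968) and Sun5 to 4930562F07Rik (0.953). Sun5 had 0 counts in the spermatogonia/spermatocyte-like and early sums of both Ctcf-cKO mice, so its r rests in part on sums at the floor. The early sum of Ctcf-cKO replicate 3 came from only 2 cells. The r was lower for Rimbp3, closest to Ube2d3 (0.891), Meig1, closest to Gm12346 (0.887), and Sun3, closest to Map7d3 (0.853). These values do not rank the members, whose counts differ widely. Among the members themselves Hook1 and Spem1 were the most alike (0.853), followed by Rimbp3 and Meig1 (0.661), and Spem1 and Meig1 were the least alike (-0.620).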

How the data were processed

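Droplet-based (ddSEQ) 3′ libraries of testis cells from 2 WT and 2 Ctcf-cKO mice were analysed. The authors aligned reads to GRCm38 (release 98) and deposited raw counts per gene symbol and barcode; the counting tool, its version and strand setting are not given in the sources used here. The members and all gene lists were chosen with earlier results of these data known. Barcodes with 200 to 7000 genes and at most 10% mitochondrial counts numbered 6302 in WT and 620 in Ctcf-cKO, and those with at least 3 times the median count of barcode ranks 301 to 1000 of their library were kept as cells (337 and 474). Cells were normalized and clustered in Seurat 5.3.0 (2000 variable genes, 15 principal components, resolution 0.9), and clusters were named from at least 3 markers. Batch correction followed the Harmony algorithm, written anew rather than run from its package. Each mouse was taken as a batch, so the correction also acted across genotypes. Scrublet marked 21 cells as doublets, which were left out in an alternative. Per gene symbol, counts were summed per mouse and class (at least 5 cells) and tested in edgeR 4.0.16 (quasi-likelihood F test after filterByExpr and TMM scaling, called at a Benjamini-Hochberg adjusted p of 0.05, with the SE derived from F), with R 4.3.3 and DESeq2 1.42.0 as an alternative. Only the edgeR test between genotypes on summed counts was tried on simulated data, and cell calling and clustering were not. Named genes were all 8 members, up to 3 rises and 3 falls of the wider list per class with non-overlapping mice, and the 3 genes most like each member. Intervals and floors (3 counts) cover counting error only. Gene positions followed GENCODE vM21. The early class had too few cells to be tested as reported and was fitted under 2 alternatives only.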

Additional observations from a re-analysis of the deposited data

How the results depend on the processing

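Sun5 was called lower in whole libraries under all alternatives tried there, and Rimbp3 under all but those without a Ctcf-cKO mouse. No paired analysis was possible because WT and Ctcf-cKO share only replicate number 1. Leaving out 1 mouse at a time assumes that the lone mouse varies like the other group. It gave 1 to 4 members called in whole libraries, 0 to 1 in late and 0 to 2 in spermatogonia/spermatocyte-like cells (Spem1 and Spag4, without WT replicate 2). Genes called ranged from 1710 to 4444 in whole libraries, 305 to 583 in late, 1 to 46 in round, 0 to 182 in mid and 0 to 153 in spermatogonia/spermatocyte-like cells. Log2 fold changes that crossed 0 in this way were those of Hook1 (-0.0099 to 0.23), Spag4 (-0.035 to 0.27) and Spem1 (-0.16 to 0.32) in whole libraries, Rimbp3 (-0.31 to 0.74) and Sun3 (-0.21 to 0.42) in late, Spag4 (-0.28 to 0.070) and Spem1 (-1.72 to 0.53) in round, Rimbp3 (-0.66 to 0.34) and Spag4 (-0.30 to 0.22) in mid, and Spem1 (-0.56 to 4.02) in spermatogonia/spermatocyte-like cells.

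The late call of Meig1 was also lost, leaving 0 members called, with library totals, with no low-count filter, with a minimum of 10 counts per library, at 500 or more genes per cell, without batch correction, with free RNA subtracted and with counts divided by 4. Its log2 fold change in these settings was -0.53, -0.89, -0.57, -0.61, -0.73, -0.74 and -0.46 in that order, against -0.72 as reported. Late genes called, 598 as reported, numbered 372 by DESeq2, 355 without doublets, 334 above the knee of the barcode ranks, 296 with free RNA subtracted, 207 at resolution 1.3, 206 with counts divided by 4, 84 with at least 10 counts and 0 without batch correction. With library totals the median of all late genes moved from 0.0033 to 0.20 on the log2 scale, and 485 genes were higher and 28 lower, against 493 and 105. In the other classes 0 genes were called as reported. In spermatogonia/spermatocyte-like cells the number was 84 by DESeq2, 61 with no filter, 30 with counts divided by 4, 26 with as many barcodes as the study counts and 21 with library totals. In mid cells it was 42 with no filter, 9 by DESeq2 and 2 with counts divided by 4. In round cells it was 41 with no filter, 5 by DESeq2, 1 above the knee and 1 with library totals. The causes were not tested.

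Signs of uncalled log2 fold changes turned as follows. For Hook1 in late cells (-0.08) the value was 0.43 at resolution 1.3, 0.23 with counts divided by 4, 0.13 without doublets, 0.13 with as many barcodes as the study counts, 0.12 with library totals, 0.12 without the shared barcode, 0.065 with at least 10 counts and 0.0078 above the knee. For Sun3 in late cells (0.16) it was -0.32 without doublets, -0.22 without the shared barcode, -0.18 at resolution 1.3, -0.10 at resolution 0.5, -0.10 above the knee, -0.030 with as many barcodes as the study counts and -0.024 with no filter. For Spag4 in late cells (-0.03) it was 0.23 at 500 or more genes, 0.22 with counts divided by 4, 0.16 with library totals and 0.12 with at least 10 counts. For Rimbp3 in late cells (0.29) it was -1.04 without batch correction and -0.16 at resolution 1.3, and for Spem1 there (-0.51) 0.0011 at resolution 1.3. For Spag4 in round cells it was 0.21 with counts divided by 4, 0.077 with library totals, 0.032 with the members kept in clustering, 0.018 with as many barcodes as the study counts and 0.0097 without the shared barcode, and in mid cells -0.16 with no filter. For Rimbp3 in mid cells it was 0.11 without doublets, 0.071 above the knee, 0.065 with library totals, 0.046 with counts divided by 4 and 0.0015 with free RNA subtracted. In whole libraries Hook1 was at -0.0050 with no filter and -0.055 from barcodes with at least 200 genes, and Spem1 at -0.051 with no filter.

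The alternatives with counts divided by 4 and without the shared barcode, and the joined round class, were chosen after seeing the data. The early class held fewer than 5 cells in a mouse in all but 2 settings. It gave 0 of 5649 genes called without Ctcf-cKO replicate 3 (452 at an unadjusted p under 0.05) and 1 of 2663 with as many barcodes as the study counts (63 at an unadjusted p under 0.05), with no member called in either. Some clusterings of the other classes also held fewer than 5 cells in a mouse and were not run. The difference of the genotype effect between late and round cells gave 22 genes called without Ctcf-cKO replicate 1, 2 with library totals, 1 without WT replicate 2 and 0 in the other 3 alternatives, and no member in any.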
